A study of Mus musculus with 4 samples.

Results

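Interferon-stimulated genes are the genes that a cell switches on when interferon reaches it, and 46 of them were followed here in T-cells sorted by whether they secreted IL-10. They were a named set of antiviral effectors, nucleic acid sensors, ubiquitin-like modifiers, immune GTPases and antigen processing genes, without the interferon regulatory factors and STAT genes, which are given apart. On the arrays, 43 of the 46 had a probe set that the platform annotation assigns to that gene alone, out of 18193 such genes in all. Isg15 shared its probe set with Gm9706 and Gbp4 with Gbp8, and no probe set was named for Ifi44, so these 3 have no value here. Of the 46, 36 were treated as type I-like (34 measured) and 10 as interferon-gamma-like (9 measured), a division made from general knowledge, since many of them answer to both kinds of interferon.

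The cells came from lymph nodes of C57BL/6 mice aged 6 to 12 weeks that had received the CD28 superagonist D665, an antibody that activates T-cells and expands regulatory T-cells (Tregs). After 3 days, CD4+CD25+ T-cells were isolated, cultured overnight with antibodies to CD3 at 2 µg/ml and to CD28 at 5 µg/ml and with human IL-2 at 200 U/ml, stained for IL-10 and sorted. There were 2 IL-10+ samples, numbered 1 and 2, and 2 IL-10- samples, numbered 3 and 4, each read on 1 Affymetrix mouse genome 430 2.0 array. Both groups thus shared the superagonist and the restimulation, and no untreated cells were among the samples. The labels do not say whether the samples came from separate mice, and every p-value rests on how far these 4 samples spread, a spread that may be technical.

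Type I interferons bind the receptor made of Ifnar1 and Ifnar2, whose kinases Tyk2 and Jak1 phosphorylate Stat2. Together with Irf9, Stat2 is part of a complex that binds the interferon-stimulated response element (ISRE) of target promoters. Interferon-gamma, which activated T-cells secrete, signals through Ifngr1, Ifngr2, Jak1 and Jak2, and acts on promoters through gamma-activated sites (GAS). The products of the target genes degrade or trap viral RNA, mark proteins with ISG15, attack vacuoles that hold microbes, and load peptides on MHC class I.

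The promoters of several members show this wiring in their letters. The 120 bases before the transcription start are printed for 6 members, read 5′ to 3′ on the gene's strand (RefSeq, GRCm38.p6). Each passed the test between the groups and holds an ISRE match in these bases, which is not so of all members that passed. They include no RNA sensor, ISG15 system or antigen processing gene. Cmpk2, Trim25, Dtx3l, Tap1 and Tapbp also passed but held no match of either kind in the longer windows described below. Capitals mark the letters GAAANNGAAA of the ISRE or TTCNNNGAA of the GAS, searched on both strands, so that an ISRE on the other strand appears as its reverse complement. Neighbouring ISRE matches can overlap.
Ifit1, chr19:34640769-34640888, plus strand: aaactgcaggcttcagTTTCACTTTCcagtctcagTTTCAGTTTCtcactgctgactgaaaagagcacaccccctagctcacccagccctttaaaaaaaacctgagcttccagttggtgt
Oas1a, chr5:120907526-120907645, minus strand: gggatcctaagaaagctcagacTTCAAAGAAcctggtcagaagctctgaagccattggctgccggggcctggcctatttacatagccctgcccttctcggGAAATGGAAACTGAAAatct
Trim30a, chr7:104465194-104465313, minus strand: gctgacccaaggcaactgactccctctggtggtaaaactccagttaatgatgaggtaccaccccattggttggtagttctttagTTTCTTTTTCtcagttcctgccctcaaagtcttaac
Gbp2, chr3:142620543-142620662, plus strand: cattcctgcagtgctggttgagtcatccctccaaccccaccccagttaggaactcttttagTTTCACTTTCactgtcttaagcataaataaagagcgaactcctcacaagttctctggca
Igtp, chr11:58199436-58199555, plus strand: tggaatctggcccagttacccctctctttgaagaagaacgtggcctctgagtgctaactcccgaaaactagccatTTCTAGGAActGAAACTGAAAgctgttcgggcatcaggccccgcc
Irgm1, chr11:48871421-48871540, minus strand: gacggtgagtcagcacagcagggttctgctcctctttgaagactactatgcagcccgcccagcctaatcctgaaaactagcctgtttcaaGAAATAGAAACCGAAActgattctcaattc

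Ifit1 held 2 separate ISRE matches, at 104 to 95 and at 85 to 76 bases before the start. Oas1a and Irgm1 each held an overlapping pair close to the start, at 20 to 11 and 14 to 5 bases for Oas1a and at 30 to 21 and 24 to 15 bases for Irgm1. In Igtp a GAS match at 45 to 37 bases stood next to an ISRE match at 34 to 25 bases. Over the windows of the RefSeq promoter table, from 250 bases before to 50 after the start, 33 of the 46 members were listed, and 17 of these (51.5%) held an ISRE match, against 3.99% of all 27025 genes listed. A GAS match was found in 10 of the 33 (30.3%), against 9.55% of all genes. The share with an ISRE match was 12 of 26 among type I-like and 5 of 7 among interferon-gamma-like members. By their difference between the groups, 7 of 15 members that fell, 3 of 4 that rose and 6 of 12 that did not pass held an ISRE match. A match is a description of the letters and does not show that a factor binds there. Members without an entry were Mx1, Mx2, Tap2, Usp18, Iigp1, Dhx58, Parp14, Parp9, Ly6e, Zbp1, Oas2, Rtp4 and Gbp4.

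More of the interferon-stimulated genes were lower than higher in IL-10+ cells. By the brightest probe set of each gene, 20 of the 43 measured members fell, 5 rose and 18 did not pass an adjusted p of 0.05 (limma, over all 45037 probe sets without controls). These are 46.5% lower and 11.6% higher, where 22.9% of all genes fell and 8.37% rose. After median centring 29.8% of all genes fell and 5.59% rose, and of the members 22 fell and 4 rose. The median difference of the members was -0.16 on the log2 scale, and that of all genes was -0.02. In what follows a value is the deposited log2 level of the gene's brightest probe set on 1 array, and a difference is the mean of the IL-10+ arrays minus that of the IL-10- arrays, with the standard error (SE) of the fit.

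How bright a probe set was moved with these counts. Among genes with a mean of 9 or more over the 4 arrays, 45.5% fell and 14.7% rose in all, and of the 21 members at that level 12 fell (57.1%) and 4 rose (19.0%). Among genes with a mean under 9, 17.5% fell and 6.85% rose, and of the 22 members there 8 fell (36.4%) and 1 rose (4.55%). The median differences were -0.25 for the brighter members and -0.19 for the brighter genes as a whole, and -0.06 for the dimmer members and 0.0 for the dimmer genes as a whole. At the threshold named in the study's methods, a change of 2-fold or more at an adjusted p below 0.001, Usp18 was the single member lower and Ifih1 the single member higher, where 0.792% of all genes were lower and 0.462% higher.

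**Figure D1:**
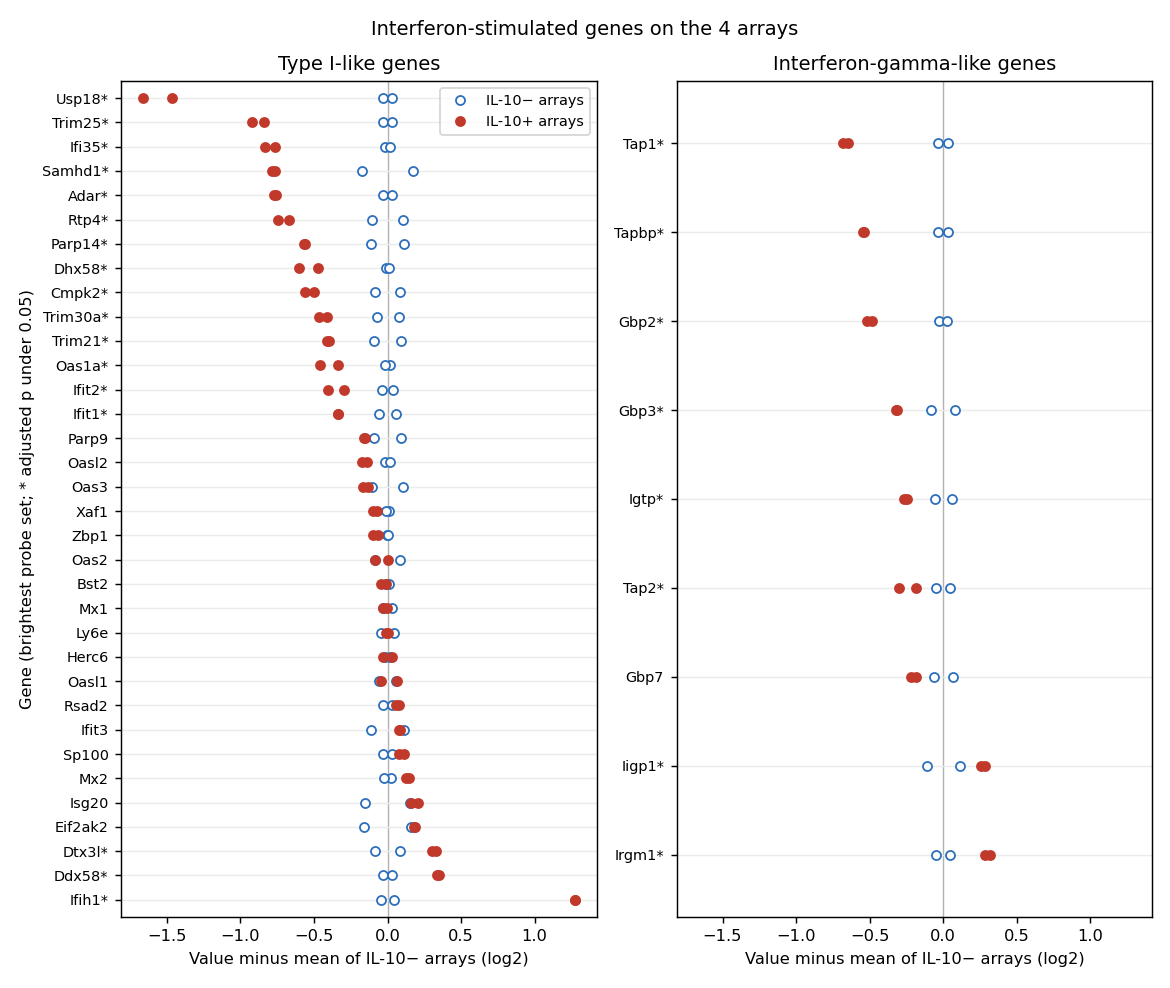
Log2 value of each measured member on each array minus the mean of the 2 IL-10- arrays, for 34 type I-like genes (left) and 9 interferon-gamma-like genes (right). Filled points are the IL-10+ arrays, open points the IL-10- arrays, and an asterisk marks an adjusted p under 0.05; Usp18 stood farthest to the left, with a mean difference of -1.56, and Ifih1 farthest to the right, with 1.28.

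The largest fall was in the ISG15 system. Usp18 is the protease that removes ISG15 from proteins and also blocks signalling at the type I interferon receptor. It stood at 6.91 and 7.11 on the IL-10+ arrays and at 8.54 and 8.61 on the IL-10- arrays. The groups lay far apart, and the difference was -1.56 (SE 0.08, adjusted p = 2.35e-05), which is 2.96-fold lower. Herc6, the ligase that attaches ISG15 in mice, overlapped between the groups, with a difference of 0.00 (adjusted p = 0.996). Its 3 dimmer probe sets rose by 0.43, 0.41 and 0.31. Isg15 itself was not measured by a probe set of its own.

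The 3 cytosolic RNA sensors, which recognise viral RNA in the cytoplasm, did not move together. Ifih1 (MDA5) read 10.63 and 10.64 in IL-10+ cells against 9.32 and 9.40 in IL-10- cells. This was a rise of 1.28 (SE 0.06, adjusted p = 2.14e-05), 2.42-fold, and Ifih1 has 1 probe set of its own. Ddx58 (RIG-I), the other signalling sensor, read 8.95 and 8.94 against 8.63 and 8.57. It rose by 0.34 (SE 0.06, adjusted p = 0.00523), and its dimmer probe sets rose as well, by 0.62 and 0.35. Dhx58 (LGP2), which lacks the signalling domains and modulates the other two, stood at 7.31 and 7.18 against 7.78 and 7.79. Its difference was -0.54 (SE 0.07, adjusted p = 0.00101), without overlap between the groups. A dimmer probe set of Dhx58 rose by 0.60 (adjusted p = 0.00131), and with the mean over its 3 probe sets Dhx58 differed by 0.02 (adjusted p = 0.811).

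Among the 14 genes that act on RNA or nucleotides, 6 fell, 0 rose and 8 did not pass, with a median difference of -0.15. The share that fell was 42.9%, against 22.9% of all genes, and the 14 included both bright and dim probe sets. Samhd1, which hydrolyses deoxynucleotides and thereby restricts retroviruses, read 11.39 and 11.40 in IL-10+ cells and 12.00 and 12.35 in IL-10- cells. The difference was -0.78 (SE 0.11, adjusted p = 0.00145). All 5 probe sets of Samhd1 fell, with differences of -0.68 to -1.74, in the member with the most probe sets of its own. Adar, the enzyme that edits adenosine in double-stranded RNA, read 9.23 and 9.22 against 9.96 and 10.02, a difference of -0.76 (SE 0.06, adjusted p = 0.000135). Its second probe set also fell, by 0.70, but the third rose by 1.37 (adjusted p = 2.25e-05), and their mean differed by -0.03 (adjusted p = 0.711).

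Cmpk2, a mitochondrial nucleotide kinase, stood at 6.35 and 6.40 in IL-10+ cells and at 6.99 and 6.82 in IL-10- cells, a difference of -0.53 (SE 0.08, adjusted p = 0.00174), and with its dimmer probe set averaged in the difference was -0.31 (adjusted p = 0.00257). Oas1a, one of the oligoadenylate synthetases that switch on RNase L, stood at 7.73 and 7.85 against 8.20 and 8.17, a difference of -0.40 (SE 0.07, adjusted p = 0.0038). In both genes every IL-10+ array was below every IL-10- array. Ifit1 and Ifit2, which bind foreign RNA and hinder its translation, fell by less. Ifit1 read 5.84 on both IL-10+ arrays against 6.23 and 6.11, a difference of -0.34 (SE 0.07, adjusted p = 0.0081), and did not pass without IL-10+ replicate 1 (adjusted p = 0.0523) or replicate 2 (adjusted p = 0.0527). Ifit2 read 6.71 and 6.60 against 6.96 and 7.04, a difference of -0.35 (SE 0.07, adjusted p = 0.00742), and did not pass without IL-10+ replicate 2 (adjusted p = 0.0731).

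The other 8 of these genes did not pass. Oasl2 stood at 5.82 and 5.79 in IL-10+ cells and at 5.94 and 5.98 in IL-10- cells, a difference of -0.16 (adjusted p = 0.109) that passed after quantile normalization (adjusted p = 0.0444) and after median centring (adjusted p = 0.0284). Oas3 stood at 6.07 and 6.03 against 6.30 and 6.09, a difference of -0.15 (adjusted p = 0.228), and without IL-10- replicate 4 it passed (adjusted p = 0.0215). In these oligoadenylate synthetase family members the groups did not overlap, but the step between them was small. Isg20, an exonuclease that degrades viral RNA, stood at 11.98 and 11.93 against 11.62 and 11.93. Its lower IL-10+ array and higher IL-10- array nearly coincided, and the difference of 0.18 (adjusted p = 0.237) passed without IL-10- replicate 4 (0.34, adjusted p = 0.00393) and after quantile normalization (0.32, adjusted p = 0.03).

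Eif2ak2 (PKR), the kinase that halts translation on sensing double-stranded RNA, stood at 7.97 and 7.98 in IL-10+ cells against 7.95 and 7.63. The IL-10- arrays differed by more than the group means did, and the difference of 0.18 did not pass (adjusted p = 0.24). It passed without IL-10- replicate 3 (0.34, adjusted p = 0.00294). Both dimmer probe sets of Eif2ak2 rose, by 1.15 and 0.78, and the mean over its 3 probe sets rose by 0.71 (adjusted p = 0.000819). Zbp1, a sensor of left-handed nucleic acid that can start necroptosis, and the remaining Ifit3, Oas2 and Oasl1 had differences between -0.08 and 0.08. The dimmer probe set of Zbp1 rose by 0.32.

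Of the 6 measured genes that act on virus particles or at membranes, 1 fell and 5 did not pass. The share that fell was 16.7%, against 22.9% of all genes. Rtp4, a receptor transporter protein induced by type I interferon, stood at 8.50 and 8.57 in IL-10+ cells and at 9.14 and 9.35 in IL-10- cells. Its groups did not overlap, and it fell by 0.71 on the log2 scale (SE 0.08, adjusted p = 0.000631). Its dimmer probe set overlapped between the groups and differed by -0.06 (adjusted p = 0.644), and the mean of both differed by -0.38 (adjusted p = 0.00505). Mx1, which is defective in many laboratory strains, and its relative Mx2 differed by -0.02 and 0.14. Rsad2 (viperin) differed by 0.07, and Bst2 (tetherin), which holds budding virus at the cell surface and is also known from plasma cells and plasmacytoid dendritic cells, differed by -0.03. Ly6e, a surface protein that hinders the fusion of some viruses, differed by -0.01, while its dimmer probe set fell by 0.53 (adjusted p = 0.00512).

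Among the 9 ubiquitin ligases of the TRIM family, ADP-ribosyltransferases and nuclear proteins, 5 fell, 1 rose and 3 did not pass. The share that fell was 55.6%, against 22.9% of all genes and 45.5% of those with a mean of 9 or more, a level that 6 of the 9 reached. Trim25, the ligase that acts on RIG-I, read 8.75 and 8.66 in IL-10+ cells and 9.55 and 9.61 in IL-10- cells, a difference of -0.88 (SE 0.07, adjusted p = 8.84e-05). This probe set of Trim25 may match more than 1 transcript by its design. A dimmer probe set of Trim25 also fell, by 0.36, and the third differed by 0.10 (adjusted p = 0.35). The mean over its 3 probe sets differed by -0.38 (adjusted p = 0.00134). Trim30a stood at 10.89 and 10.94 against 11.43 and 11.28, a difference of -0.44 (SE 0.07, adjusted p = 0.00332), and its other probe set fell by 0.57. Trim21, an antibody receptor of the cytosol, stood at 8.77 and 8.76 against 9.08 and 9.26. The difference of -0.40 passed (SE 0.08, adjusted p = 0.00615), but a dimmer probe set rose by 0.54 (adjusted p = 0.000547), and the mean of both differed by 0.07 (adjusted p = 0.391).

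Ifi35, a leucine zipper protein, read 10.95 and 11.02 in IL-10+ cells and 11.77 and 11.80 in IL-10- cells, a difference of -0.80 (SE 0.06, adjusted p = 0.000115). This probe set may match more than 1 transcript by its design, and the probe set of Ifi35 that does not carry this mark differed by -0.14 (adjusted p = 0.247). The mean over its 3 probe sets differed by -0.49 (adjusted p = 0.000787). Parp14, an ADP-ribosyltransferase, read 9.54 and 9.53 against 9.99 and 10.21, a difference of -0.56 (SE 0.08, adjusted p = 0.00179), and with its dimmer probe set averaged in it was -0.35 (adjusted p = 0.00185). Parp9 and Dtx3l, which form a complex and share a promoter region, differed in sign. Dtx3l, the ligase of the pair, read 10.69 and 10.72 against 10.47 and 10.30 and rose by 0.32 (SE 0.08, adjusted p = 0.0168), but did not pass without IL-10+ replicate 1 (adjusted p = 0.0688) or replicate 2 (adjusted p = 0.0934). The other probe set of Dtx3l differed by 0.09 (adjusted p = 0.405), and the mean of both, 0.21, did not pass (adjusted p = 0.0503). Parp9 read 10.54 and 10.53 against 10.60 and 10.79. Its difference of -0.16 did not pass (adjusted p = 0.189), though it did without IL-10- replicate 3 (-0.25, adjusted p = 0.0211).

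Xaf1, a partner of an inhibitor of apoptosis, differed by -0.09 and Sp100, a component of nuclear bodies, by 0.09, neither past the test. For Sp100 the dimmer probe set fell by 1.06 (adjusted p = 0.000178). The mean over both fell by 0.48 (adjusted p = 0.000897).

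**Figure D2:**
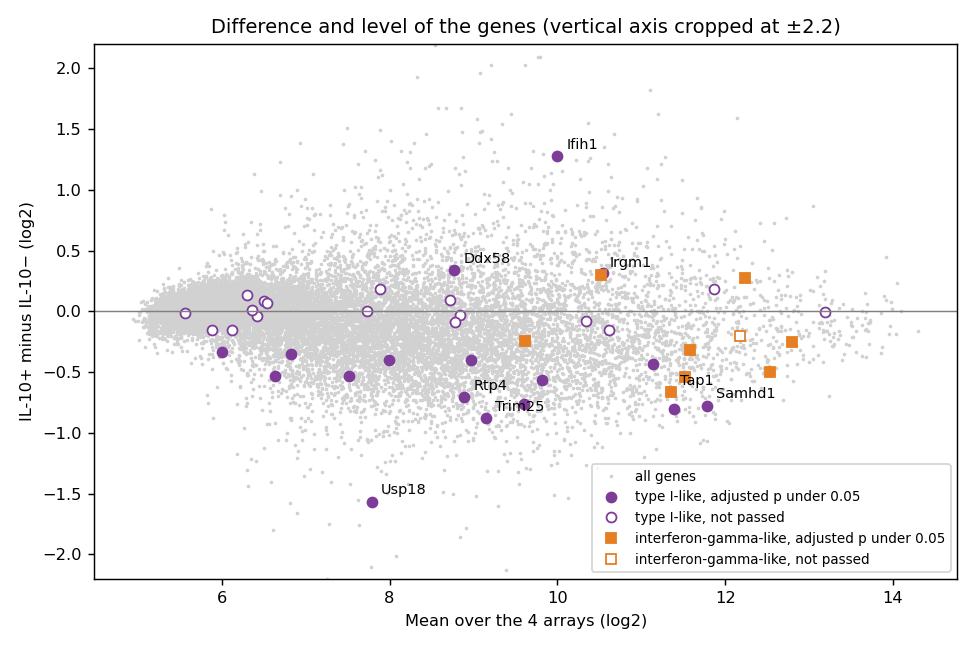
Difference between IL-10+ and IL-10- arrays (vertical, log2) against the mean over the 4 arrays (horizontal, log2) for all 18193 genes in grey, with the type I-like members as circles and the interferon-gamma-like members as squares; filled symbols have an adjusted p under 0.05 and 14 genes lie beyond the limits of 2.2. The members lie on both sides of 0. Many of those with dim probe sets lie near it, but Ifit1, Ifit2 and Cmpk2 were lower. The grey cloud of bright genes itself leans below 0.

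The interferon-gamma-like members comprised 6 measured immune GTPases and 3 genes of antigen processing. In all, 6 of the 9 fell and 2 rose, with a median difference of -0.25, and each of the 9 had a mean of 9 or more, a level at which 45.5% of all genes fell and 14.7% rose, with a median of -0.19. Without IL-10+ replicate 1, or without IL-10+ replicate 2, the number that fell was 3 and the number that rose was 0, and without IL-10- replicate 3 the number that rose was 1. In the same 2 settings without an IL-10+ replicate, 15.1% and 16.0% of all genes fell. After quantile normalization 3 fell, where 21.9% of all genes did. The shares in these settings cover genes of every level and were not taken for those with a mean of 9 or more.

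All 3 antigen processing genes fell. Tap1, a subunit of the transporter that carries peptides into the endoplasmic reticulum, stood at 11.01 and 11.04 in IL-10+ cells and at 11.66 and 11.72 in IL-10- cells. It fell by 0.67 on the log2 scale (SE 0.06, adjusted p = 0.000246), which is 1.59-fold lower. Tap2, the other subunit, stood at 9.43 and 9.55 against 9.69 and 9.78, a difference of -0.24 (SE 0.07, adjusted p = 0.0393). Without IL-10+ replicate 1 (adjusted p = 0.28), IL-10+ replicate 2 (adjusted p = 0.0727) or IL-10- replicate 4 (adjusted p = 0.0862), or after quantile normalization (adjusted p = 0.168), Tap2 did not pass. Tapbp (tapasin), which holds the transporter next to empty MHC class I, stood at 11.26 and 11.25 against 11.83 and 11.76, a difference of -0.54 (SE 0.06, adjusted p = 0.000634). The dimmer probe set of Tapbp went the other way, at 8.77 and 8.79 in IL-10+ cells and 7.18 and 6.88 in IL-10- cells. It rose by 1.75 (adjusted p = 2.83e-05), and the mean over both probe sets rose by 0.61 (adjusted p = 0.000646). For Tap1 a dimmer probe set rose by 0.50, and the mean over its 4 probe sets differed by -0.04 (adjusted p = 0.673).

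The guanylate-binding proteins Gbp2 and Gbp3, which gather on vacuoles that hold bacteria or parasites, both fell. Gbp2 stood at 12.30 and 12.26 in IL-10+ cells and at 12.75 and 12.81 in IL-10- cells, a difference of -0.50 (SE 0.06, adjusted p = 0.000884), and its other probe set fell by 0.54. Gbp3 stood at 11.43 and 11.42 against 11.66 and 11.83, a difference of -0.32 (SE 0.08, adjusted p = 0.0154). It did not pass without IL-10+ replicate 1 (adjusted p = 0.0735) or replicate 2 (adjusted p = 0.081), nor after quantile normalization (adjusted p = 0.0982). Gbp7, of the same family, stood at 12.09 and 12.06 against 12.21 and 12.34. Its groups did not overlap, but the difference of -0.20 did not pass (adjusted p = 0.0699). It passed without IL-10- replicate 3 (adjusted p = 0.0152), after median centring (adjusted p = 0.0204) and without the probe sets below the median (adjusted p = 0.0497). The dimmer probe set of Gbp7 rose by 1.40 (adjusted p = 3.54e-05), and the mean over both rose by 0.60 (adjusted p = 0.000573).

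The immunity-related GTPases, which disrupt such vacuoles, were divided. Igtp (Irgm3), a regulator of the family, stood at 12.68 and 12.66 in IL-10+ cells and at 12.87 and 12.98 in IL-10- cells and fell by 0.25 on the log2 scale (SE 0.07, adjusted p = 0.0267). Irgm1, another regulator, stood at 10.68 and 10.65 against 10.41 and 10.32 and rose by 0.30 (SE 0.07, adjusted p = 0.0114). Iigp1, an effector, stood at 12.39 and 12.36 against 11.99 and 12.22 and rose by 0.27 (SE 0.08, adjusted p = 0.047). In none of the 3 did the groups overlap, yet each call depended on single arrays. Igtp did not pass without IL-10+ replicate 1 (adjusted p = 0.12), IL-10+ replicate 2 (adjusted p = 0.15) or IL-10- replicate 4 (adjusted p = 0.0697), nor after quantile normalization (adjusted p = 0.0768). Irgm1 did not pass without IL-10+ replicate 1 (adjusted p = 0.0867) or replicate 2 (adjusted p = 0.0602). Iigp1 did not pass without IL-10+ replicate 1 (adjusted p = 0.187), IL-10+ replicate 2 (adjusted p = 0.135) or IL-10- replicate 3 (adjusted p = 0.13), nor after median centring (adjusted p = 0.135) or averaged over its probe sets (0.18, adjusted p = 0.0533), the dimmer of which differed by 0.09 (adjusted p = 0.392).

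The probe sets of a gene, which match different stretches of its transcripts, often disagreed. The 43 members had 81 probe sets of their own, of which 31 fell, 19 rose and 31 did not pass, against 16.2% lower and 13.6% higher among all probe sets on the array. The 38 probe sets that were not the brightest of their gene were divided into 11 lower, 14 higher and 13 that did not pass. The whole array also moved this way. By the brightest probe set of each gene 22.9% fell and 8.37% rose, and over all probe sets the shares were 16.2% and 13.6%. Of the 24 members with several probe sets, 13 had a brightest one that fell, and in 5 of these (38.5%), Adar, Dhx58, Tap1, Tapbp and Trim21, a dimmer one rose. Over all genes this was so in 795 of 2628, or 30.3%. The 3 members with several probe sets whose brightest one rose had 0 dimmer ones that fell. Over all genes this opposite move was seen in 113 of 950. When the probe sets of each gene were averaged, 17 members fell and 7 rose, and 18.4% of all genes fell and 12.2% rose.

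**Figure D3:**
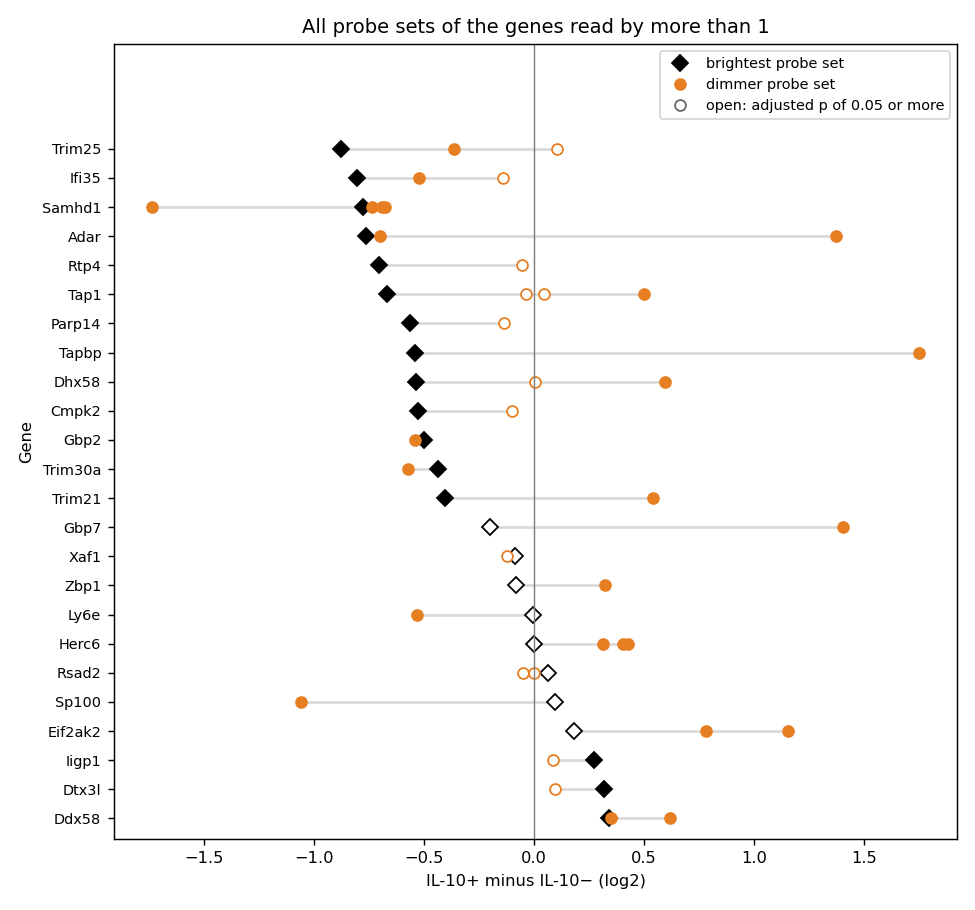
Difference between IL-10+ and IL-10- arrays (log2) of every probe set of the 24 members read by more than 1, with the brightest probe set as a diamond and the dimmer ones as circles; open symbols have an adjusted p of 0.05 or more. The 5 probe sets of Samhd1 lie on the same side of 0, whereas Tapbp, Adar and Gbp7 have a dimmer probe set above 1.

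The arrays were also read for the signalling genes that stand before the interferon-stimulated genes. Among interferon genes, 10 of 17 were measured, 2 rose (20.0%) and 0 fell, where 8.37% of all genes rose and 22.9% fell. Ifng stood at 11.56 and 11.52 in IL-10+ cells and at 10.86 and 10.81 in IL-10- cells, a rise of 0.71 (SE 0.06, adjusted p = 0.000184). The probe set of Ifna1, a type I interferon, may match more than 1 transcript by its design. Ifna1 read 6.41 and 6.47 against 6.21 and 6.15, a rise of 0.26 (adjusted p = 0.0216), on arrays whose medians were 6.31 to 6.41. It did not pass without IL-10+ replicate 1 (adjusted p = 0.0779) or replicate 2 (adjusted p = 0.171), nor after quantile normalization (adjusted p = 0.0664) or median centring (adjusted p = 0.0762).

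Of the 9 receptor chains and kinases, 4 fell (44.4%) and 0 rose. This compares with 22.9% of all genes that fell, and 45.5% of those with a mean of 9 or more, a level that the 4 reached. The kinases Jak2, Jak1 and Tyk2 differed by -0.49, -0.39 and -0.38 and Ifngr1 by -0.26, each past the test. Without IL-10+ replicate 1 the number that fell was 2, as Tyk2 (adjusted p = 0.0558) and Ifngr1 (adjusted p = 0.207) did not pass. Ifngr1 also did not pass without IL-10+ replicate 2 (adjusted p = 0.101) or IL-10- replicate 4 (adjusted p = 0.108), nor after quantile normalization (adjusted p = 0.154). Ifngr2 (-0.18, adjusted p = 0.0877), Ifnar1 (0.31, adjusted p = 0.121) and Ifnar2 (-0.03, adjusted p = 0.796) did not pass. Without IL-10- replicate 4, Ifnar1 rose by 0.52 (adjusted p = 0.000155) and Ifngr2 differed by -0.23 (adjusted p = 0.0454), which also passed after quantile normalization (adjusted p = 0.0274) and median centring (adjusted p = 0.0188). Averaged over its probe sets, Jak1 rose by 0.55 (adjusted p = 0.000787), while Jak2 (adjusted p = 0.428) and Tyk2 (adjusted p = 0.261) did not pass.

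Of the 5 measured transcription factors, Irf8, Irf1 and Irf7 fell, with differences of -0.67, -0.64 and -0.30, and Irf7 did not pass without IL-10+ replicate 1 (adjusted p = 0.0796) or replicate 2 (adjusted p = 0.0633). Stat2, the partner of Irf9 in the ISRE-binding complex, stood at 7.42 and 7.63 in IL-10+ cells and at 7.04 and 6.71 in IL-10- cells, a rise of 0.65 (SE 0.12, adjusted p = 0.00501), and averaged over its probe sets it did not pass (adjusted p = 0.069). Irf9 differed by 0.04 and did not pass. The share of these factors that fell was 60.0%, against 22.9% of all genes and 45.5% of those with a mean of 9 or more. Of the 7 genes of feedback on cytokine signalling, 5 fell (71.4%, against the same shares) and 1 rose (14.3%, against 8.37% of all genes). Socs3, which curbs signalling by gp130 cytokines most of all, stood at 10.02 and 9.93 against 11.04 and 11.15, a difference of -1.12 (SE 0.07, adjusted p = 4.29e-05). Socs1, which curbs interferon-gamma signalling, rose by 0.65 (adjusted p = 0.0186). The inhibitor Pias3 fell by 0.53 and the phosphatase gene Ptpn6 fell by 0.46. Without IL-10+ replicate 1 the number that fell was 3, and Ptpn6 did not pass (adjusted p = 0.0573). Averaged over its probe sets Pias3 did not pass (adjusted p = 0.355), nor did Ptpn6 without the probe sets that may match several transcripts (adjusted p = 0.461).

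A further list held 65 interferon-induced genes that were not members. Of the 55 measured, 30 fell and 4 rose, with a median difference of -0.28, and without IL-10+ replicate 1 the number that fell was 19. The largest differences were in Slfn2, a Schlafen gene of T-cell quiescence, which rose by 1.18, in Ifi30, a thiol reductase of antigen processing, which fell by 0.77, in Trim14, a TRIM family adaptor, which rose by 0.76, and in Gbp6, which fell by 0.74. Over the 5 lists together 42 of 86 genes fell (48.8%) and 8 rose (9.3%), against 22.9% and 8.37% of all genes. Among all genes with a mean of 9 or more 45.5% fell, and among those under 9 it was 17.5%. The 86 genes had means from 5.32 to 13.63. Without IL-10+ replicate 1 the number that fell was 26, and the share of all genes that fell was 15.1%.

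**Figure D4:**
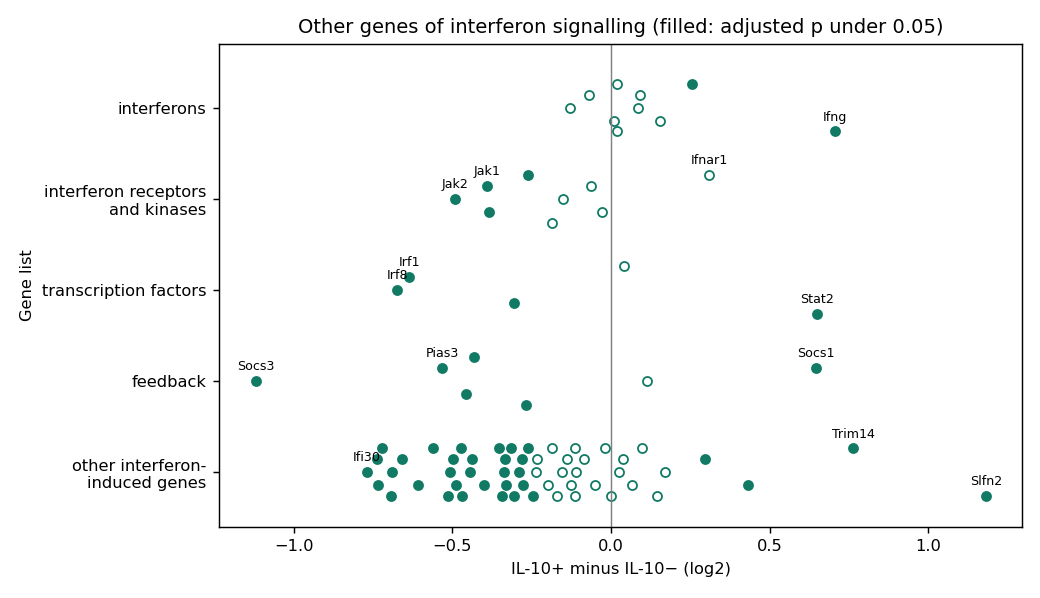
Difference between IL-10+ and IL-10- arrays (log2) of 86 other genes of interferon signalling in 5 lists, 1 point per gene by its brightest probe set, filled where the adjusted p is under 0.05. Ifng, Stat2, Socs1, Trim14 and Slfn2 lie to the right of 0, and Socs3, Irf8, Irf1 and most filled points of the last list lie to the left.

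Other measures differed between the same arrays. Among 10 measured markers of T-cells and Tregs 2 fell (20.0%), 4 rose (40.0%) and 4 did not pass. Il10, the cytokine of the sort, was 1.62 higher in IL-10+ cells on the log2 scale. Ctla4, Cd4 and Cd3g were 0.87, 0.51 and 0.41 higher. Foxp3, the Treg transcription factor, differed by -0.72, and Ikzf2 also fell. Il2ra, Tnfrsf18, Cd3e and Cd3d did not pass. Of 17 measured markers of B cells and plasma cells 12 fell (70.6%) and 1 rose (5.88%), where 22.9% of all genes fell and 8.37% rose. Their mean level was 7.47 on both IL-10+ arrays and 8.78 and 8.77 on the IL-10- arrays. Their largest difference was -5.45, in Igha, the heavy chain of IgA. Ms4a1, Cd79b and Cd22 differed by -1.22, -1.06 and -0.90. The 4 that did not pass included Pax5, which differed by -0.03 at a mean level of 6.16. Of 11 markers of plasmacytoid dendritic cells, the main producers of type I interferon, 6 fell (54.5%) and 1 rose (9.09%). Their mean levels were 7.43 and 7.39 against 7.59 and 7.56. Among them Spib, Irf8, Pacsin1 and Tcf4 differed by -0.81, -0.67, -0.61 and -0.41, and Ccr9 rose by 0.85. Their most specific marker, Siglech, did not pass, at 6.47 and 6.32 against 6.25 and 6.27. This level is near the array medians of 6.31 to 6.41, where a probe set may not show a change. Of 7 markers of NK cells and CD8 T-cells 3 fell (42.9%) and 1 rose (14.3%), with mean levels of 7.03 and 7.01 against 7.26 and 7.25. Of 13 markers of macrophages, monocytes and dendritic cells 1 fell (7.69%) and 4 rose (30.8%), with 6.62 and 6.60 against 6.54 and 6.50. The part of these cells in the differences of the interferon-stimulated genes was not tested, and in sorted bulk samples fewer cells of a type and less RNA per cell cannot be told apart.

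Of the 25 members called in either direction, 17 kept their call and direction with each array left out in turn, 15 of them lower and 2 higher. With an array left out, its group holds only 1 array, and the calls kept were not set against a share of all genes. In all 12 other settings tried besides the 2-fold threshold, 11 kept call and direction. They were Cmpk2, Gbp2, Oas1a, Parp14, Rtp4, Samhd1, Trim25, Trim30a and Usp18, all lower, and Ddx58 and Ifih1, both higher. Oas1a, Usp18 and Ifih1 each have a single probe set of their own. The mean over probe sets and the removal of those of suffix x or s could therefore not change their values. With 2 arrays against 2, an exact two-sided permutation test of a single gene cannot go below p = 0.333, so each call rests on the spread that limma pools over all probe sets.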

How the data were processed

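RNA of 4 samples was labelled and hybridized to Affymetrix mouse genome 430 2.0 arrays, starting from 100 ng per the labels (the methods give 2 µg). Signals were variance stabilized by the authors with Bioconductor packages. Each array has 1 deposited value per probe set, taken as log2 because the largest, 14.42, exceeds the natural log of the top of a 16-bit scanner's range (11.09). Variance stabilization compresses the differences of dim probe sets.

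The groups were compared with limma (version 3.58.1, R version 4.3.3; lmFit, then eBayes; moderated two-sided test, Benjamini-Hochberg over 45037 probe sets, 64 controls set aside), with 2 residual and 5.44 prior degrees of freedom. This step was tested on simulated data. Genes were named by the platform annotation, which can be old, and each was read from its brightest probe set (by the mean of all arrays) of those naming that gene alone; 932 probe sets naming several genes were used for none. Levels were not compared between genes. Promoters came from RefSeq (GRCm38.p6) and were searched with Python 3.11.15. Values are given for every member that passed and for the 6 largest differences among the rest.

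The members and the gene lists were chosen with earlier results of these data known, so their counts are descriptions, with no test of a list. The alternatives comprised each array left out, quantile normalization, centring on the median, a fit of only the brighter part of the probe sets (at or above the median), a trended or robust prior, the brightest probe sets fitted alone, the mean over probe sets, no probe sets of suffix x or s, and the 2-fold threshold. Arrays have no depth, and their number limits the precision.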

Additional observations from a re-analysis of the deposited data

Results flagged for a closer look

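The 5′ probe sets of 4 poly-A control transcripts, which are added to the RNA in known amounts and belong to no gene of the mouse, were higher on the IL-10+ arrays than on the IL-10- arrays by a median of 1.11 on the log2 scale, while the 3′ probe sets of the same transcripts differed by 0.09. These control probe sets were outside the comparison of the genes, and whether they bear on the probe sets of a gene that moved in opposite directions was not tested.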

How the results depend on the processing

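No paired analysis was possible because the IL-10+ and IL-10- samples share no replicate number. The number of members lower, 20, stayed between 15 and 22 in the settings other than the 2-fold threshold, and the number higher, 5, went from 2 to 6 with an array left out. The interferon-gamma-like members lower, 6, went to 3 after quantile normalization and from 3 to 7 with an array left out. The other interferon signalling genes lower, 42, went from 26 to 43 with an array left out. At the 2-fold threshold 1 member was lower (1 type I-like, 0 interferon-gamma-like), 1 was higher, 3 of the members' probe sets were lower and 1 of the other interferon signalling genes was lower. Over all genes, 22.9% fell and 8.37% rose, which became 21.9% and 9.11% after quantile normalization and 29.8% and 5.59% after median centring.

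After quantile normalization, median centring or with an array left out, signs turned mostly where a difference was near 0. With the mean over probe sets, signs also turned for genes called lower in the main fit. These were Dhx58, Tapbp, Trim21 and Jak1, with main differences of -0.54, -0.54, -0.40 and -0.39. After quantile normalization the differences were 0.0409 for Bst2, -0.0005 for Herc6, 0.139 for Ly6e, -0.0674 for Oasl1, -0.0089 for Rsad2, 0.0366 for Zbp1 and 0.052 for Ifnar2. After median centring they were -0.0751 for Herc6, -0.0659 for Oasl1, -0.0102 for Rsad2 and -0.0352 for Irf9. With the mean over probe sets they were 0.022 for Dhx58, 0.601 for Gbp7, 0.154 for Ifngr2, 0.549 for Jak1, -0.482 for Sp100, 0.606 for Tapbp, 0.0683 for Trim21 and 0.121 for Zbp1, of which Gbp7, Jak1, Sp100 and Tapbp passed. The cause was not tested, beyond the opposite probe sets given above. With an array left out the range was -0.0288 to 0.0309 for Herc6, -0.028 to 0.192 for Ifit3, -0.0621 to 0.0032 for Ifnar2, -0.0469 to 0.0367 for Ly6e, -0.0443 to 0.0119 for Mx1, -0.123 to 0.0419 for Oas2 and -0.0448 to 0.0652 for Oasl1. Only 4 arrays and the compressed values of dim probe sets limit the precision, and differences of dim members near 0 cannot be read as a lack of change.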
